A study of Mus musculus with 6 samples.

Results

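The molybdenum cofactor genes described here are 7 of the 43432 gene IDs in a table of raw RNA-seq counts from mouse medullary thymic epithelial cells (mTEC), the stromal cells of the thymus that display peripheral tissue antigens to developing T cells. The cells came from C57BL/6 mice at 4 weeks of age that had either the genotype Copa+/+ (3 libraries, called WT) or CopaE241K/+ (3 libraries, called MUT). The protein made from Copa is a subunit of the COPI vesicle coat, which works in transport between Golgi and endoplasmic reticulum, and the labels name no Cre or other restriction of the altered allele to the epithelium. Whether a library was made from 1 animal or from several is not told by the labels, so the tests below measure the spread between libraries, part of which may be technical. Mocs1 was taken because it was lower in MUT with a p-value among the lowest of the series, so its genotype difference is given as a description and supports nothing. Mocs2, Mocs3, Gphn, Xdh, Suox and Aox1 were added for their known function.

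The molybdenum cofactor is a pterin that holds molybdenum in the active site of a small group of enzymes. It is made in steps: MOCS1 turns GTP into the first pterin precursor in mitochondria, the MOCS2 complex inserts sulfur that MOCS3 has loaded onto its small subunit, and gephyrin, the product of Gphn, inserts the metal. Xanthine oxidoreductase (Xdh), which makes uric acid, sulfite oxidase (Suox), which detoxifies sulfite, and aldehyde oxidase (Aox1) depend on the cofactor. Loss of any of the synthesis steps is known to disable all of these enzymes together, and liver is the tissue in which the enzymes are best known.

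Mocs1 belongs to the radical SAM enzymes, which bind an iron-sulfur cluster through 3 cysteines, and so does Rsad2 (viperin), an interferon-induced antiviral enzyme. The coding stretches below are shown because Mocs1 and Rsad2 had fitted genotype differences of opposite sign. They run 5′ to 3′ on the coding strand, come from GENCODE M21 transcripts on GRCm38, and have the codons of the 3 cysteines in capitals. The Mocs1 stretch (codons 80 to 87 with 2 codons on either side) lies within chr17:49433278-49435111 on the plus strand and is split by an intron. The Rsad2 stretch (codons 84 to 91, likewise) is chr12:26456141-26456176 on the minus strand, and that of Lias, the lipoyl synthase gene (codons 136 to 143), is chr5:65397612-65397647 on the plus strand.
Mocs1: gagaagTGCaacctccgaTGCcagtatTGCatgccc
Rsad2: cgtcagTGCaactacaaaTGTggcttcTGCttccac
Lias: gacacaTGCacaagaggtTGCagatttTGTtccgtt

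The search asked for a cysteine, any 3 residues, a cysteine, any 2 residues and a cysteine, and it found 1 match in the longest complete coding sequence of 7 of the 8 listed radical SAM genes and none in Elp3. A match describes the sequence and was not used as evidence of activity.

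Mocs2 is unusual in that 1 gene encodes both subunits of its complex in overlapping reading frames. The annotated frames share 80 bases within chr13:114820837-114820940 (GRCm38, plus strand), counted from the start codon of the second frame to the stop codon of the first, both in capitals below. A read over this stretch belongs to both frames, so the gene count cannot tell the subunits apart, which is why it is printed.
Mocs2: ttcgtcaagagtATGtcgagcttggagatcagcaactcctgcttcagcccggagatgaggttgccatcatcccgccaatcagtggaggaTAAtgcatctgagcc

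Library totals ran from 19934513 to 23366238 counts, and 17172 genes had enough counts to be tested, including all 7 members. Copa itself had a log2 fold change of -0.20 (SE 0.34), which does not check a point mutation. The mTEC regulators Aire and Fezf2 were counted in every library, at 929 to 1563 CPM and 442.0 to 866 CPM, while Ccl21a, a chemokine gene with near-identical copies, had at most 4 counts in any library. CPM here means a count scaled to a common library size after TMM normalization (trimmed mean of M values) over the tested genes. Differences were fitted with edgeR's quasi-likelihood test over all tested genes, and p-values were adjusted by the Benjamini-Hochberg method at 0.05. At that threshold 0 of the 7 members and 0 genes of the whole table were called (0% of those tested), with a lowest adjusted p of 0.999875. Without adjustment, 597 genes (3.48%) and 1 member, Mocs1, had a p under 0.05, and other tools and settings called 0 to 308 genes, as given with the dependence on processing.

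Among the synthesis genes, Mocs1 was lower in MUT, and Mocs2, Mocs3 and Gphn overlapped between the genotypes. Mocs1 (ENSMUSG00000064120, chromosome 17, 49428362 to 49455435, plus strand) was counted 6172, 8835 and 4822 times in the WT replicates 1, 2 and 3. The MUT replicates, in the same order, held 1007, 2439 and 2703. Scaled for depth, these were 354.6, 416.1 and 212.2 CPM in WT and 47.5, 116.8 and 97.7 CPM in MUT. The lowest WT library lay above the highest MUT library, with WT 3 the lowest of its genotype and MUT 1 the lowest of all. The means were 328 ± 105 CPM in WT and 87.3 ± 35.8 CPM in MUT (SD, n = 3 each), a ratio of 3.75 of WT over MUT. The fitted log2 fold change was -1.91 (SE 0.43, with a 95% interval of -2.84 to -0.98).

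By p-value Mocs1 was the 6th of the 17172 tested genes and the 1st of those lower in MUT (unadjusted p 0.00077 in edgeR), which is the value it was chosen by. Its adjusted p in edgeR was 0.999875, the same as that of the other members. A p under 0.05 with a lower value in MUT was given to 1.85% of tested genes, and every MUT value was below every WT value for 3.96%. Of the 7 members, Mocs1 alone met either condition, and nothing is read from that count because the rule used this comparison. Without a filter on low counts edgeR gave Mocs1 an adjusted p of 0.0066, and DESeq2 gave 0.076.

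**Figure D1:**
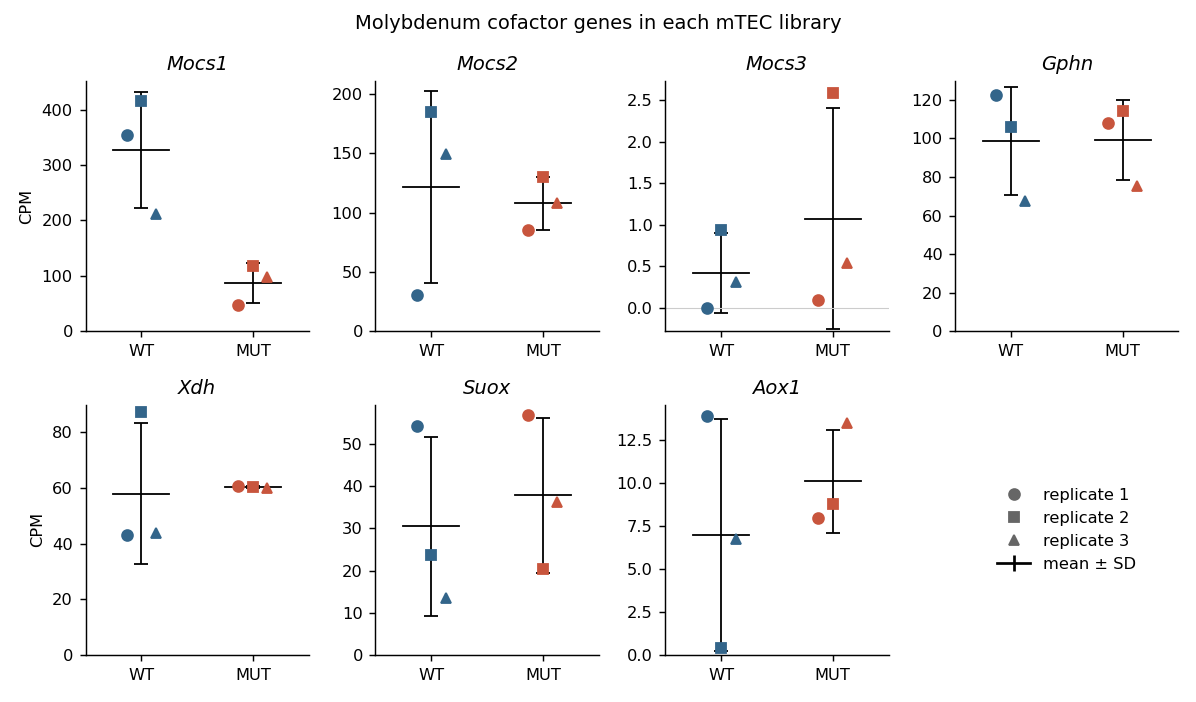
CPM of each of the 7 members (vertical axes, 1 scale per gene) in the 3 WT libraries (blue) and the 3 MUT libraries (red), with the symbol giving the replicate number and black bars the mean ± SD. The Mocs1 values of MUT, 47.5 to 116.8 CPM, lie below those of WT, 212.2 to 416.1 CPM, and every other panel overlaps; the lower end of the SD bar of Mocs3 passes below 0, which no count can.

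The counts of Mocs1 sum 7 annotated transcripts, 4 of them coding, and the gene makes its protein in forms that differ by splicing, which the table does not separate. The antisense gene Gm20540 overlaps the first part of the Mocs1 locus on the minus strand but shares no exon bases with it. It had 10 counts in WT library 3 and 0 in the other 5. Daam2, the next gene downstream and on the opposite strand, overlapped between the genotypes (12.3, 15.5 and 81.4 CPM in WT and 14.9, 6.90 and 24.8 CPM in MUT).

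Mocs2 (ENSMUSG00000015536, chromosome 13, 114818236 to 114832275) measured 30.4, 185 and 150 CPM in WT libraries 1, 2 and 3. In MUT it measured 85.4, 130.2 and 107.8 CPM, all within the WT range. Its log2 fold change was -0.17 (SE 0.56, 95% interval -1.40 to 1.05; adjusted p 0.999875 in edgeR). WT library 1 stood apart: without it the log2 fold change was -0.64, while the value was 0.25 without WT library 2 and 0.15 with the replicate number as a block, so no direction can be given.

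Mocs3 (ENSMUSG00000074576, chromosome 2, 168230622 to 168232594), the sulfurtransferase that charges the small MOCS2 subunit and also serves tRNA thiolation, was close to the limit of counting. Its counts were 0, 20 and 7 in the WT replicates and 2, 54 and 15 in the MUT replicates. The 0 in WT library 1 allows up to 0.172 CPM, taking 3 counts as the limit, and covers counting error only. The log2 fold change of 1.35 had an SE of 2.22, and without MUT library 2, which held 54 counts, it was -0.39.

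Gphn (ENSMUSG00000047454, chromosome 12, 78226379 to 78684772), whose product also anchors glycine and GABA receptors at inhibitory synapses, was the most even member across the 6 libraries. It measured 122.5, 106.1 and 67.8 CPM in WT and 108.0, 114.3 and 75.3 CPM in MUT. Its highest library was 1.81 times its lowest, against 8.76 times for Mocs1. The log2 fold change was 0.01 (SE 0.41, 95% interval -0.90 to 0.91).

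Ratios of raw counts within a library need no scaling between libraries. The ratio of Mocs1 to Gphn was 2.89, 3.92 and 3.13 in WT libraries 1, 2 and 3, and 0.440, 1.02 and 1.30 in MUT. The genotypes did not overlap, and the mean ratio was 3.32 ± 0.54 in WT and 0.920 ± 0.438 in MUT. Ratios of Mocs1 to Mocs2 and of Mocs1 to Xdh were also lower in all MUT libraries than in any WT library, at 0.556 to 0.906 against 1.42 to 11.7, and at 0.781 to 1.93 against 4.77 to 8.24. The ratio of Gphn to Xdh, both added for their known function, ran from 1.22 to 2.85 in WT and from 1.256 to 1.89 in MUT. A ratio shows only that the pair differed unequally between the libraries, and since Mocs1 was chosen by this comparison, no test is given.

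**Figure D2:**
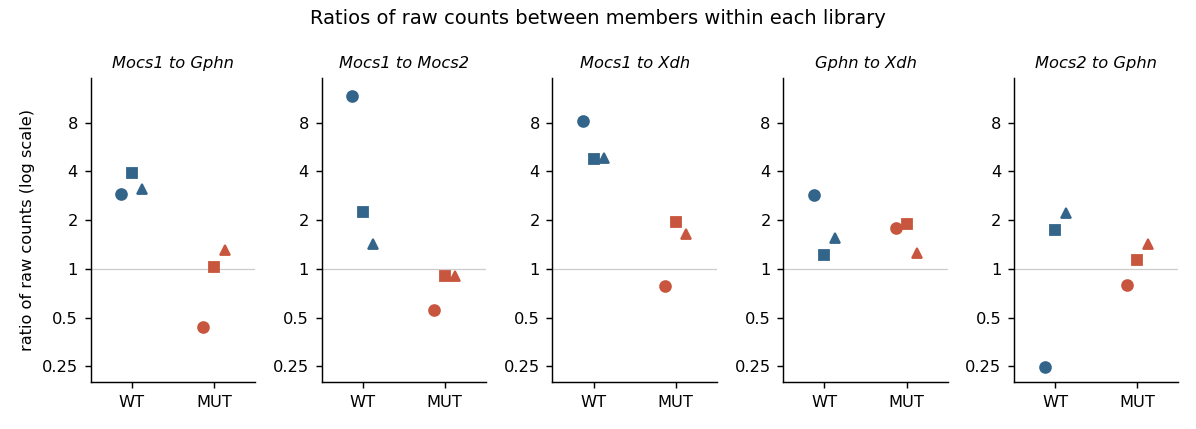
Ratio of raw counts between pairs of members within each library (vertical axis, log scale) for 3 WT (blue) and 3 MUT (red) libraries, with circles, squares and triangles for replicates 1, 2 and 3. The 3 panels with Mocs1 on top separate the genotypes, from 2.89 to 3.92 against 0.440 to 1.30 for Mocs1 to Gphn, and the 2 panels without it overlap.

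Levels can be set side by side between genes only per length, here as CPM per kilobase of all annotated exons. On that scale Mocs1 was the highest member in each WT library, at 105 ± 33.6 against 26.4 ± 7.49 for Gphn, 13.4 ± 8.93 for Mocs2 and 12.2 ± 8.50 for Suox (mean ± SD, n = 3). Xdh followed at 6.32 ± 2.76, Aox1 at 0.804 ± 0.775 and Mocs3 at 0.211 ± 0.243. Mocs2, Suox and Xdh, and likewise Aox1 and Mocs3, do not differ beyond their spread. In MUT, Mocs1 (28.1 ± 11.5) and Gphn (26.5 ± 5.59) lay together at the top by mean. By library, Mocs1 was the highest member in MUT libraries 2 and 3 (37.6 and 31.4). In MUT library 1 Mocs1 (15.3) lay below Gphn (28.8) and Suox (22.8). The order depends on the length used, because 17 transcripts spread the exons of Mocs2 over 9054 bases while its coding transcripts have a median of 1113. With the median length of the coding transcripts, a scale chosen after seeing the data, Mocs2 stood at 109 ± 72.7 in WT and 96.9 ± 20.1 in MUT. Mocs1 was then at 198 ± 63.0 in WT, still the highest mean, and at 52.7 ± 21.6 in MUT, below Mocs2.

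The cofactor-dependent enzymes overlapped between the genotypes. Xdh (ENSMUSG00000024066, chromosome 17, 73883895 to 73950196) measured 43.0, 87.2 and 43.7 CPM in WT libraries 1, 2 and 3 and 60.8, 60.5 and 59.9 CPM in MUT. The 3 MUT libraries were nearly equal and lay between the WT libraries. The log2 fold change was 0.06 (SE 0.49, 95% interval -1.01 to 1.13; adjusted p 0.999875 in edgeR), or 0.47 without WT library 2 and -0.12 without WT library 1.

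Suox (ENSMUSG00000049858, chromosome 10, 128669894 to 128674073) measured 54.3, 23.6 and 13.6 CPM in WT and 57.0, 20.4 and 36.2 CPM in MUT. Libraries numbered 1 were the highest in both genotypes. The log2 fold change was 0.31 (SE 0.71, 95% interval -1.23 to 1.85), and it was 1.02 without WT library 1 and -0.11 without MUT library 1.

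Aox1 (ENSMUSG00000063558, chromosome 1, 58029931 to 58106413) was a low member, at 13.8, 0.377 and 6.73 CPM in WT and 7.97, 8.77 and 13.5 CPM in MUT. WT library 2 held 8 counts against 153 to 373 in the other 5. The log2 fold change was 0.53 (SE 1.32), and -0.04 without WT library 2. Across the 6 libraries, Pearson's r of log2(CPM + 1) between Mocs1 and the other members ran from -0.46 for Aox1 to 0.11 for Gphn, over libraries that also differ in genotype and depth.

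**Figure D3:**
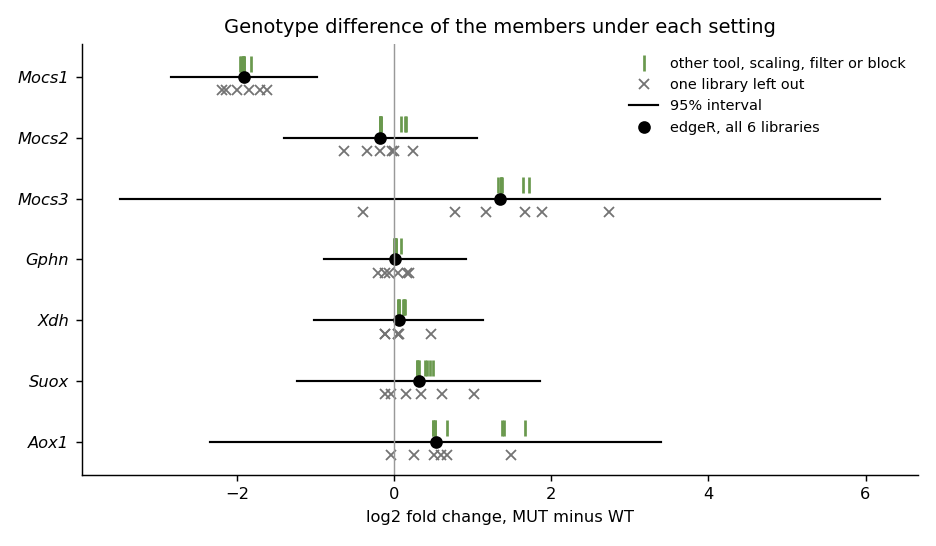
Log2 fold change, MUT minus WT (horizontal axis), of each member, as fitted by edgeR on all 6 libraries (black points) with its 95% interval (lines), and the values under other tools, scalings, filters or the block (green ticks) and with 1 library left out (grey crosses). All fitted values of Mocs1 lie between -2.19 and -1.61, while some values of every other member fall on the other side of 0.

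The remaining cofactor enzymes and the pathways on either side were taken from lists chosen for function. They held 66 tested genes that are not members, of which 29 had a fitted value above 0 and 37 below, with a median log2 fold change of -0.07; over all 17172 tested genes the median was -0.01, and 8485 lay above 0. None passed the adjusted threshold in edgeR, and 1, Rsad2, had an unadjusted p under 0.05, a condition met with a higher value in MUT by 1.62% of all tested genes. For 3 of the 66 every MUT value exceeded every WT value, and for 1 every MUT value was lower, against 5.39% and 3.96% of all tested genes.

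Of the other molybdoenzymes and the sulfurase that activates Xdh and Aox1, 1 of 6 had a fitted value above 0 and 5 below, and the median log2 fold change was -0.69. The aldehyde oxidase gene Aox4 had the smallest p of the list, at 321, 21.0 and 27.0 CPM in WT and 75.6, 12.1 and 52.9 CPM in MUT. WT library 1 was far above the other 5, and the log2 fold change of -1.39 had an SE of 0.95. Aox2 was named after its values were seen, as the gene without overlap: it measured 10.5, 10.1 and 15.6 CPM in WT and 4.01, 3.93 and 8.53 CPM in MUT (-1.14, SE 1.12). Others named after their values were seen are Mocos, Marc1, Marc2 and, further on, Lias, Allc and Urad. Mocos, the sulfurase gene, was higher in MUT libraries 2 and 3 (21.1 and 9.39 CPM) than in any WT library (3.39 to 5.80 CPM), but not in MUT library 1 (2.92 CPM). The amidoxime reducing component genes Marc1 and Marc2 had log2 fold changes of -0.85 (SE 0.60) and -0.06 (SE 0.37). The genes of the cytochrome b5 and the cytochrome b5 reductase that serve these enzymes both had fitted values above 0. The reductase gene, Cyb5r3, had a WT mean of 281 ± 66.9 CPM and a MUT mean of 431 ± 214 CPM (0.62, SE 0.38). MUT library 2, at 678 CPM, was the only MUT library above the WT range of 217 to 350 CPM.

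Genes that supply sulfur to Mocs3 or share its role in tRNA thiolation had 4 of 7 fitted values above 0 and a median of 0.13. Ctu2, which thiolates tRNA with Ctu1, had the smallest p of them and did not overlap, at 1.09, 1.55 and 3.34 CPM in WT and 13.3, 7.57 and 8.24 CPM in MUT, with a log2 fold change of 2.28 (SE 1.40). Lyrm4, a partner of the cysteine desulfurase Nfs1 named after its values were seen, was also higher in each MUT library (1.33, SE 1.11). Iron-sulfur cluster assembly, on which MOCS1 depends, had 9 of 19 fitted values above 0 and a median of -0.04.

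Of the radical SAM genes, 3 of 8 had fitted values above 0, and the median without Mocs1 was -0.08. Rsad2, whose coding stretch is shown above, measured 22.9, 41.9 and 10.5 CPM in WT libraries 1, 2 and 3 and 122, 208 and 224 CPM in MUT. The genotypes did not overlap, and the log2 fold change was 2.88 (SE 0.55), opposite in sign to Mocs1. Lias, the third stretch shown, measured 79.1, 48.9 and 21.9 CPM in WT and 30.05, 16.3 and 38.3 CPM in MUT (-0.82, SE 0.65) with overlap.

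Purine breakdown around Xdh, a list that also holds purine salvage and steps after uric acid, had 3 of 11 tested genes above 0 and a median of -0.19. Hprt, the purine salvage gene that competes with Xdh for hypoxanthine, had the smallest p, with a WT mean of 128 ± 72.1 CPM and a MUT mean of 66.9 ± 22.99 CPM (-0.93, SE 0.49). WT library 1 held 209 CPM of Hprt, against 104 and 71.0 CPM in WT libraries 2 and 3. The genes Allc and Urad were counted too rarely to be tested. Sulfur amino acid breakdown, which leads to sulfite, had 5 of 10 above 0 and a median of -0.02, with Csad, which makes hypotaurine, at -2.20 (SE 1.46). Csad measured 25.9, 2.97 and 4.05 CPM in WT and 1.18, 1.48 and 4.48 CPM in MUT, so WT library 1 stood apart. The gephyrin partners at inhibitory synapses had 4 of 8 tested genes above 0 and a median of 0.15, and 5 more were too rare to be tested.

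**Figure D4:**
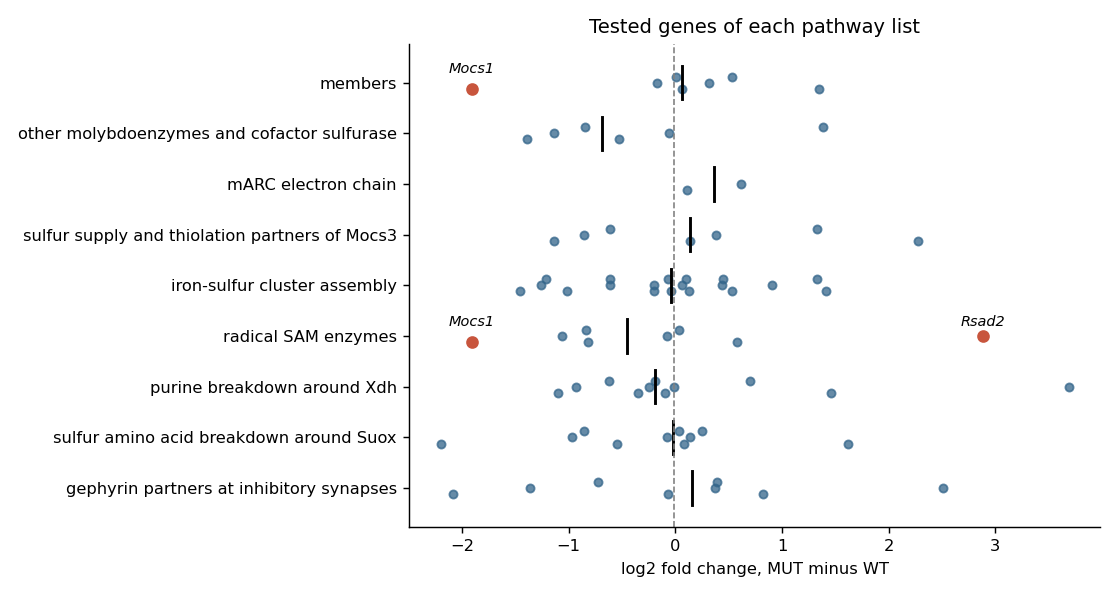
Log2 fold change, MUT minus WT (horizontal axis), of every tested gene in each list (points), with the list median (black bar) and the median of all tested genes (dashed line, -0.01). Mocs1 at -1.91 and Rsad2 at 2.88 are marked in red; Rsad2 is the 1 non-member with an unadjusted p under 0.05 in edgeR.

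Among 12736 tested genes with a mean of at least 5 CPM, the 5 with the highest Pearson's r to Mocs1 over the 6 libraries were Psmb5, Calca, Alb, Gm17751 and Cnppd1, with r from 0.98 to 0.995 on log2(CPM + 1). They share the libraries and the genotype split with Mocs1, so the likeness is a description. Psmb5, a proteasome subunit gene, measured 21.2, 21.5 and 17.7 CPM in WT and 10.2, 14.1 and 12.4 CPM in MUT. Calca, the calcitonin gene whose product lowers blood calcium, measured 156, 165 and 110.3 CPM in WT and 39.2, 84.4 and 72.6 CPM in MUT. Alb, the albumin gene of hepatocytes, measured 39.4, 70.5 and 16.99 CPM in WT and 0.0472, 10.1 and 3.58 CPM in MUT. Like Mocs1, all 5 were highest in WT library 2 and lowest in MUT library 1, a likeness they were chosen for. None of the 5 passed the adjusted threshold in edgeR.

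**Figure D5:**
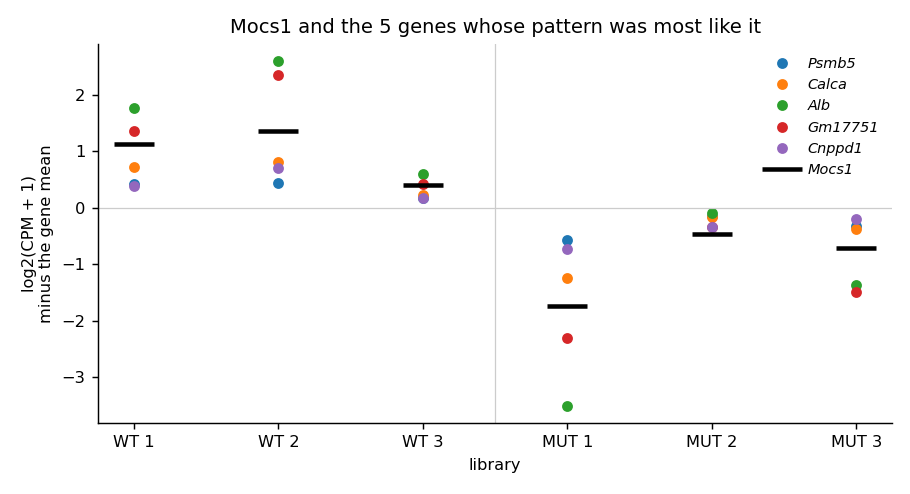
Log2(CPM + 1) minus the gene's mean over libraries (vertical axis) in each of the 6 libraries (horizontal axis) for Mocs1 (black dashes) and the 5 genes with the highest r to it (coloured points). All lie above their mean in the WT libraries and below it in the MUT libraries, and their order among the WT libraries follows that of Mocs1.

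Markers of other cells were set beside the Mocs1 difference. All 10 listed genes of tuft-like mTEC, chemosensory cells of the medulla, had fitted values below 0, 4 of them with an unadjusted p under 0.05 in edgeR. Over all tested genes, 1.85% had such a p with a lower value in MUT. The summed level of the 10 was 1703, 728 and 557 CPM in the WT replicates and 513, 481 and 337 CPM in the MUT replicates. The sums did not overlap, with WT library 1 far above the rest. By gene, only 1 of the 10 had every MUT value below every WT value, against 3.96% of all tested genes. None of the 10 was at 0 in all libraries. Of 10 genes of hepatocyte- and enterocyte-like mTEC, a list that holds Alb, 7 had fitted values below 0, 3 of them with an unadjusted p under 0.05, and the summed level overlapped at 527 to 1205 CPM in WT and 452 to 629 CPM in MUT. Of 7 tested genes of keratinocyte-like mTEC, 5 had fitted values below 0 and 1 an unadjusted p under 0.05, and the sums overlapped at 280.0 to 408 CPM in WT and 224 to 297 CPM in MUT. That gene was Ly6d, a surface protein gene of stratified epithelia named after its values were seen, at 159, 138 and 123 CPM in the WT replicates and 57.3, 51.6 and 45.1 CPM in the MUT replicates, without overlap (log2 fold change -1.45, SE 0.40). Fibroblast and pericyte markers summed to 3063, 1880 and 1762 CPM in the WT replicates and 1764, 1239 and 1511 CPM in the MUT replicates, so that MUT library 1 alone reached the lowest WT library. Most of that sum was 1 gene, Rgs5, at 2955, 1776 and 1626 CPM in WT and 1685, 1096 and 1383 CPM in MUT. Of the 8 listed genes, 5 had fitted values below 0 and 3 above, so the sum does not describe the list. The part of any of these lists in the Mocs1 difference was not tested, and fewer cells of a type and less RNA per cell cannot be told apart in these bulk samples. Summed thymocyte markers overlapped widely, at 206 to 539 CPM in WT and 120 to 752 CPM in MUT. Those of dendritic cells and macrophages did too (622 to 1152 and 532 to 1033 CPM). The MUT range of the mTEC sum lay within its WT range (3885 to 6100 and 4094 to 4427 CPM). By gene, 6 of the 12 tested mTEC markers had fitted values above 0 and 6 below. Epcam, an epithelial marker of that list, was the 1 gene without overlap (log2 fold change -0.48, SE 0.28). It measured 629, 641 and 751 CPM in the WT replicates and 418, 441 and 593 CPM in the MUT replicates.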

How the data were processed

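The deposited values are whole-number counts for each Ensembl gene in each library, not normalized. The tools STAR 2.4.2a and DESeq2 1.26.0 and the build GRCm38 are named, without their roles, per the submitters' processing notes. Per the labels' protocols, RNA was amplified to cDNA by the Nugen Ovation method and made into libraries with Nextera XT. No molecular identifiers are described, so limits from counts cover counting error only. How reads were counted, and whether strand was used, is not given in the sources used here, so antisense and near-identical genes are uncertain.

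Columns were matched to libraries by source name, and genotype and replicate number came from the titles. Symbols were found for 42462 of 43432 IDs, and loci, lengths and transcripts come from GENCODE M21 on GRCm38. The test was edgeR 4.0.16 in R 4.3.3 (filterByExpr, TMM, robust quasi-likelihood F-test, genotype only, 17172 genes), and an SE is the fitted coefficient over the root of F. Alternatives used DESeq2 1.42.0, limma 3.58.1 (voom), other scalings and filters, the replicate block, and each library left out. The main edgeR test, limma-voom and DESeq2 without the block were tested on simulated data. The other scalings and filters, the block and the fits with a library left out were not. The members and lists were chosen with earlier results of these data known. The naming rule took the members, in each list the genes with an unadjusted p under 0.05 or else that with the smallest p, the 5 genes most like Mocs1, neighbours of Mocs1, Copa and Rsad2. Mocos, Marc1, Marc2, Aox2, Lyrm4, Lias, Allc, Urad, Ly6d, Rgs5 and the mTEC markers Aire, Fezf2, Epcam and Ccl21a fall outside it and were named after their values were seen. For some lists the gene this rule names is not reported here.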

Additional observations from a re-analysis of the deposited data

How the results depend on the processing

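Mocs1 stayed lower in MUT under all 14 alternatives, with a log2 fold change from -2.19 to -1.61, which is also its range with each library left out. It passed the adjusted threshold under 2 of them: edgeR without a filter on low counts (-1.91, adjusted p 0.0066) and DESeq2 with the replicate block (-1.96, adjusted p 0.017); in these the number of members called was 1, and over all 14 its adjusted p ran from 0.0066 to 0.99997. The cause was not tested. The rank of Mocs1 by p-value, 6 in the main fit, also moved with the setting. It was 165 with DESeq2, 158 with the block in DESeq2 and 21 without the filter. With a library left out it ran from 2 (without MUT library 2) to 35 (without WT library 2). The count of 0 genes became 73 without the filter, 116 with DESeq2, 1 with the replicate block in edgeR and 308 with the block in DESeq2, and stayed 0 under the other alternatives, leave-one-out included. Over all tested genes the median log2 fold change, -0.01, was 0.16 when no filter was used, 0.15 in DESeq2 and 0.20 in the blocked DESeq2 fit. Mocs2 turned positive with limma-voom (0.09), the edgeR block (0.15) and the DESeq2 block (0.13), and ranged from -0.64 to 0.25 with a library left out, turning positive without WT library 2 (0.25) or WT library 3 (0.0013). Gphn was at -0.01 with DESeq2 size factors (-0.0053) and with DESeq2 (-0.0065), and ranged from -0.21 to 0.19, below 0 without WT library 3 (-0.21), MUT library 1 (-0.06) or MUT library 2 (-0.11). With a library left out Xdh ranged from -0.12 to 0.47 (-0.12 and -0.11 without WT library 1 or 3), Suox from -0.11 to 1.02 (-0.04 without WT library 3, -0.11 without MUT library 1), Aox1 from -0.0435 to 1.48 (lowest without WT library 2) and Mocs3 from -0.39 to 2.73 (-0.39 without MUT library 2); the stricter filter left Mocs3 untested. Same-numbered WT and MUT libraries share the ending of their source names, whose meaning the labels do not give, so a shared day or litter is possible but not stated, and the block was kept as an alternative. Same-numbered libraries deviated together with correlations across genes of 0.094, 0.080 and 0.101, and 6 of 6 libraries correlated best with their own number across genotypes. Values of Mocs3 and the rare genes of the lists rest on few counts. Genes with at least 1 count ran from 17174 in WT library 1 to 24774 in MUT library 3. WT library 3, with the lowest total, had 21755, so this number did not follow depth. Mitochondrially encoded genes held from 9.1% of counts in MUT library 3 to 21.3% in MUT library 2. Of 9 such genes looked at singly, 2 had 0 counts in all libraries, so the percentages cover only the genes that were counted. The part of these library differences in the values above was not tested.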
